A study of Mus musculus with 41 samples.

Results

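Insulin-like growth factors are small secreted peptides that act on a receptor tyrosine kinase, and 9 genes of this system were followed in 41 mouse melanomas. The genes were taken by symbol: the ligands Igf1 and Igf2, the receptor Igf1r, and the binding proteins Igfbp2, Igfbp3, Igfbp4, Igfbp5, Igfbp6 and Igfbp7. All probe sets that name exactly 1 of these genes were used, which gave 26 of the 34958 one-gene probe sets and 9 of 18194 genes. The tumours come from iBIP mice, in which BRAF is induced by doxycycline, and were macrodissected, frozen and measured on Affymetrix arrays as biotin-labelled cRNA. Doxycycline was taken out of the drinking water for a stated number of days before harvest, and the strain was iBIP in all groups. Day 0, with 4 tumours, had no withdrawal. Day 1 had 7 tumours, day 2 had 5, day 3 had 6, day 6 had 4, day 9 had 3, and days 16 and 29 had 1 each. The 10 tumours harvested from day 63 to day 163 are called the late tumours. The late tumours were from days 63, 77, 90, 121, 136 and 163. The labels state neither the animals' ages nor whether each tumour is from a separate mouse, so p-values measure only the spread between these samples.

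Igf1 and Igf2 bind the receptor Igf1r, which signals through the insulin receptor substrates to the PI3K and MAPK pathways. The binding proteins hold the ligands in the extracellular space, prolong their life and either block or assist delivery to the receptor, and proteases such as Pappa release the ligand by cutting them. In skin the system is known for fibroblast-derived Igf1 that supports melanocytes and melanoma cells, and Igfbp7 is known as a weak binder of the growth factors that is also secreted by melanocytes. Igf2 is an imprinted fetal growth factor that is cleared by the receptor Igf2r.

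The starts of 3 members are shown because these genes moved most between the groups: Igf1 and Igfbp2 were higher in late tumours and Igfbp3 was lower. Each line gives the 250 bases before the transcription start in RefSeq (GRCm38.p6), 5′ to 3′ on the gene's strand, with matches to 5 motifs in capitals. Igf1 is on the plus strand at chr10:87860861-87861110, Igfbp2 is shown for the inner of its 2 starts at chr1:72825137-72825386 on the plus strand, and Igfbp3 is on the minus strand at chr11:7213924-7214173.
Igf1: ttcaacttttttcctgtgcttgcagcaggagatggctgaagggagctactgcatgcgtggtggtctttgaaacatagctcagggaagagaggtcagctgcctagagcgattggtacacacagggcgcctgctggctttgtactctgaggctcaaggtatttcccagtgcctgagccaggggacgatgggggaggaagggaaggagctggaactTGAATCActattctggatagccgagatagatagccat
Igfbp2: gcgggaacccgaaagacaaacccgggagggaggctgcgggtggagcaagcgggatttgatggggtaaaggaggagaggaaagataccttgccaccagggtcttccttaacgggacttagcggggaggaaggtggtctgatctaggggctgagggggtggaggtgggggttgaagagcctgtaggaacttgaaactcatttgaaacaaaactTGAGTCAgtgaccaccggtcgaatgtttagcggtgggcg
Igfbp3: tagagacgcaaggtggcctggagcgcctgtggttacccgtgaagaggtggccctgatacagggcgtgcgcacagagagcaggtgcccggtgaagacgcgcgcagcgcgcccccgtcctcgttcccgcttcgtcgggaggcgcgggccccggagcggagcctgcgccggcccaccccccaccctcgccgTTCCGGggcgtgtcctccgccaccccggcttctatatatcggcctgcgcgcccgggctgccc
The motifs, read on both strands, were the AP-1 letters TGANTCA, the ETS letters CCGGAA, the FOXO letters GTAAACA, the GC box GGGCGG and the TATA letters TATAAA. In the lines above the capitals are an AP-1 match 37 bases before the Igf1 start, an AP-1 match 39 bases before the Igfbp2 start and an ETS match 62 bases before the Igfbp3 start, and no matches overlap. The AP-1 letters were in 2 of the 13 windows of the 9 members and in 6.75% of 32851 windows of all genes. Of the Igfbp2 windows only the inner one, shown above, held an AP-1 match. The outer one, at chr1:72824230-72824479, held 3 GC box matches and no AP-1 match. The ETS letters were in 1 of 13 and 12% of all, the GC box in 5 of 13 and 32.7% of all, the TATA letters in 2 of 13 and 12.4% of all, and the FOXO letters in 0 of 13 and 3.17% of all. A match is a run of letters and not a shown site.

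In the genome (GRCm38.p6) Igf1 spans chr10:87858265-87937047, Igf2 chr7:142650768-142666816 and Igf1r chr7:67952257-68233668. Igfbp2 at chr1:72824480-72852474 lies next to Igfbp5 at chr1:72858065-72874865. The others are Igfbp3 at chr11:7206086-7215498, Igfbp4 at chr11:99040005-99052655, Igfbp6 at chr15:102144186-102149512 and Igfbp7 at chr5:77349240-77408045.

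Some properties of the arrays follow the groups. Spike-in controls put the arrays into 3 sets: the first takes in every array of days 2, 3 and 6 with 1 array of day 1. The other 6 arrays of day 1 and 8 late ones form set 2, and the remaining arrays, 2 late ones among them, form set 3. The boundary between sets 2 and 3 is narrow, 9.3 against 9.62 on the log2 scale, and no label calls the sets batches. The Gapdh gap, the signal of the 3′ control probe set minus that of the 5′ one, widens with RNA degradation; it was above 2 in 8 of the 10 late tumours and in 1 of 3 at day 9, and in none of the other tumours. It averaged 0.454 ± 0.125 (SD, n = 4) at day 0 and 2.62 ± 1.38 (n = 10) in late tumours. Of 9 melanocyte markers 7 passed the filter on low values, which lay at 5.67. Tyr and Gpr143 did not, with medians of 4.89 and 4.83. Among those that passed, Mlana and Tyrp1 had medians of 5.41 and 5.56, under that level. Dct, Pmel and Slc45a2 had medians of 6.01, 6.36 and 6.48, Mitf of 8.43 and Sox10 of 10.1. Values below are log2(intensity + 16) after quantile normalisation, and differences are on that scale with their standard error (SE). A gene counts as called where limma's p, adjusted by Benjamini-Hochberg over 14319 genes, is under 0.05. The pseudocount of 16 understates changes of weak genes, and probe set levels are compared between tumours, never between genes.

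Day 9 had 3 tumours and day 0 had 4, so their precision is limited by number. Members passed the test in each comparison as follows. Against day 0, 1 of 9 rose at day 1 (13.8% of all genes were called), 0 changed at day 2 (15.1%), 1 fell at day 3 (21.3%), 1 rose at day 6 (12.2%) and 0 changed at day 9 (4.56%). At days 2 and 9 no member was called, though 3 of 9 had an unadjusted p under 0.05 on each day. Late tumours differed from day 0 in 4 members, 3 higher and 1 lower, where 46.4% of all genes were called, and from day 1 in 5, 4 higher and 1 lower, where 51.7% were called. The member shares are near those of all genes in the late comparisons. The median log2 difference over the 9 members from day 0 to late was 0.41, against 0.045 over all genes tested. The comparisons with day 0 share the same 4 day 0 tumours, and both late comparisons share the same 10 late tumours.

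**Figure D1:**
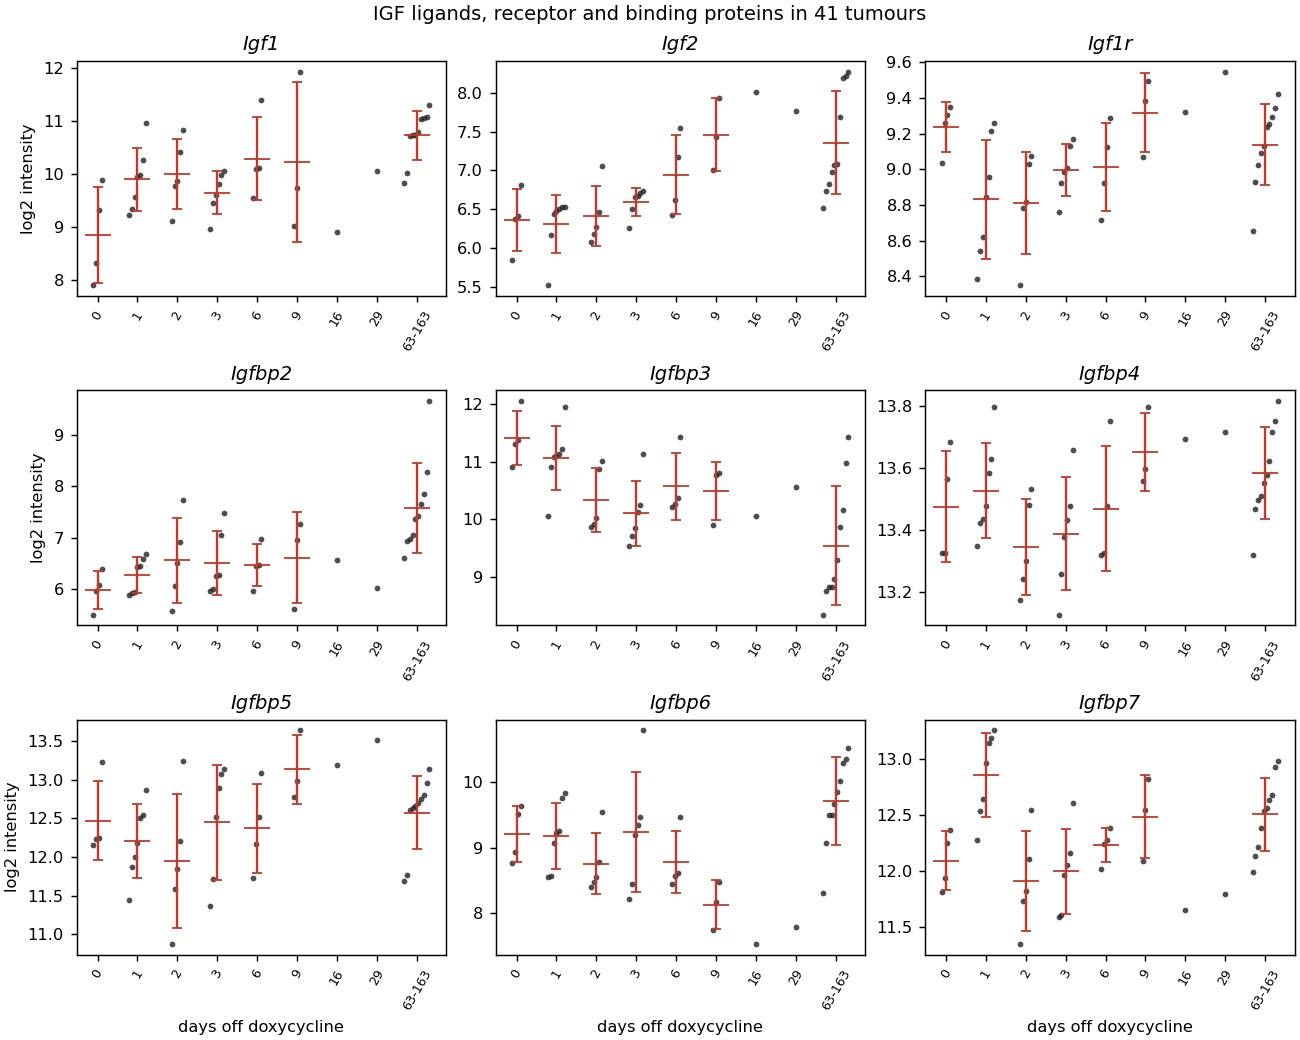
Log2 intensity of the probe set used for each of the 9 genes (vertical axes, one range per panel) by days off doxycycline, with a dot per tumour and the mean ± SD in red where a group has more than 1 tumour. Igf1 and Igfbp2 have their highest and Igfbp3 its lowest group mean in the tumours of days 63 to 163, at 10.73, 7.58 and 9.55, while Igfbp4 keeps within 13.13 and 13.82 in all tumours.

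Igf1, the ligand that growth hormone induces in liver and that stromal cells also secrete, was 9.33, 8.32, 7.90 and 9.88 in the 4 tumours of day 0. At day 1 the lowest was 9.22, the median 9.95 and the highest 10.96. The 5 tumours of day 2 had 10.84, 9.87, 9.77, 9.11 and 10.42. All tumours of days 1 and 2 lay above the day 0 mean of 8.86, with overlapping ranges. At day 3 Igf1 ranged from 8.96 to 10.06 with a median of 9.72, and at day 6 the tumours had 10.12, 11.39, 10.10 and 9.55. The 3 tumours of day 9 had 9.73, 9.03 and 11.93, and days 16 and 29 had 8.91 and 10.06. Day 9 was the most spread group, and its highest tumour is the one with a Gapdh gap above 2. Late tumours ranged from 9.83 to 11.31 with a median of 10.77, and all 10 lay above the day 0 mean although the highest day 0 tumour overlapped them.

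From day 0 to late Igf1 rose by 1.88 ± 0.40 (SE, limma adjusted p = 0.00027), a fold of 3.67. It rose by 1.43 ± 0.48 at day 6 (limma adjusted p = 0.043). The differences at days 1, 2, 3 and 9 were 1.04, 1.15, 0.79 and 1.37, with limma adjusted p of 0.0935, 0.0817, 0.197 and 0.111. Late against day 1 the gene was higher by 0.83 ± 0.33 (limma adjusted p = 0.0353). Within spike-in set 2, where 8 late and 6 day 1 tumours are compared and 49.1% of genes were called, the difference was 0.83 ± 0.24 (limma adjusted p = 0.0094). Within spike-in set 3 the late value was 1.41 higher than day 0, with a limma adjusted p of 0.26 from 2 late tumours. With the Gapdh gap as a covariate it was 1.23 (limma adjusted p = 0.064), and without arrays of a gap above 2 it was 1.92 (limma adjusted p = 0.00804). Against day 1 the late difference fell to 0.21 with that covariate (limma adjusted p = 0.768).

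The call for Igf1 at day 6 ended without any of 5 single tumours: day 0 replicate 2 or 3 (differences of 1.25 and 1.12) and day 6 replicate 1, 2 or 3 (1.490, 1.066 and 1.496), with limma adjusted p between 0.0658 and 0.168. It also ended when spike-in sets entered as a block (1.65, limma adjusted p = 0.47). The late call against day 1 was lost when day 1 replicate 4, 6 or 7 was left out, or late replicate 2, 3, 4 or 7, at 0.72 to 0.80 and limma adjusted p of 0.0523 to 0.0819. At day 9 the difference passed without day 9 replicate 2 (1.98, limma adjusted p = 0.0225). The other 3 Igf1 probe sets followed the one used, with Pearson r of 0.913 to 0.984 over 41 tumours as a description. All 4 were higher in late tumours by 1.60 to 2.13, and the lowest late value of the set with the largest rise, 9.17, lay above the day 0 highest of 9.03.

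Markers of some other cell types moved with Igf1. The counts of called genes below compare late tumours with day 0, where 46.4% of all genes were called. The mean log2 level of 8 fibroblast genes was 11.30 to 12.15 at day 0 and 11.40 to 12.90 in late tumours, and 5 of the 8 were called higher. The 2 adipocyte genes that could be tested, of 5, gave 5.08 to 6.72 at day 0 and 7.30 to 9.98 late, with Plin1, Cidec and Lep not tested and 1 of the 2 called higher. Endothelial genes (8) gave 6.78 to 8.18 at day 0 and 7.71 to 8.48 late, with 3 of 8 called higher. All genes of a tumour are read from the same array. Over 41 tumours Igf1 had Pearson r of 0.719 with the adipocyte level, 0.71 with the fibroblast level and 0.644 with the endothelial level. With the group means removed these were 0.617, 0.642 and 0.709. The macrophage, T and NK and keratinocyte levels had r of -0.148, -0.0192 and 0.0707 with Igf1 over the 41 tumours. The remaining lists ran from 0.387 (Schwann) to 0.563 (mural). At day 6, where Igf1 was also called, no fibroblast, endothelial or tested adipocyte gene was called. The other lists gave 3 of 6 mural genes higher and 1 lower, 4 of 4 tested Schwann cell genes higher, 3 of 7 melanocyte genes higher, 3 of 6 skeletal muscle genes higher and 2 of 6 keratinocyte genes higher in late tumours than at day 0. The part of these cells in the Igf1 result was not tested. A change in the number of cells of a type and a change in RNA per cell cannot be told apart in such bulk tumours.

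Igf2, the imprinted fetal growth factor, was 6.82, 6.41, 5.85 and 6.37 at day 0. Day 1 ran from 5.52 to 6.53 with a median of 6.48, and day 2 gave 6.08, 6.46, 6.18, 6.27 and 7.06. The means of these 3 groups were 6.36, 6.31 and 6.41. Day 3 ran from 6.26 to 6.73 with a median of 6.66, and day 6 had 6.62, 6.43, 7.55 and 7.18. The day 9 tumours had 7.44, 6.999 and 7.94, days 16 and 29 had 8.01 and 7.77, and late tumours ran from 6.52 to 8.27 with a median of 7.08. All tumours of days 9, 16 and 29 lay above every day 0 tumour, and the late ones overlapped them. By mean, the groups rise in the order day 1, day 0, day 2, day 3, day 6, late and day 9, and every pair of neighbours overlaps in range.

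Igf2 was higher in late tumours than at day 0 by 1.00 ± 0.27 (limma adjusted p = 0.00344) and than at day 1 by 1.05 ± 0.23 (limma adjusted p = 0.000291). At day 9 it was 1.10 ± 0.35 above day 0 (limma adjusted p = 0.0642), which did not pass; without day 9 replicate 2 it was 1.33 (limma adjusted p = 0.0346). Within spike-in set 2 the late value was 0.87 ± 0.24 above day 1 (limma adjusted p = 0.00892), and within set 3 it was 1.88 above day 0 (limma adjusted p = 0.0102). With the Gapdh gap as a covariate the late difference from day 0 fell to 0.63 (limma adjusted p = 0.179), and without arrays of a gap above 2 to 0.54 (limma adjusted p = 0.188). Against day 1 those values were 0.70 and 0.60 (limma adjusted p = 0.0925 and 0.116). The late tumours of days 90, 136 and 163 had 8.19, 8.27 and 8.22, and the next highest late tumour had 7.69. The second Igf2 probe set lay under the filter in all 41 arrays and was not tested.

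Igf1r, the receptor tyrosine kinase for both ligands, was 9.31, 9.03, 9.26 and 9.35 at day 0 on the probe set used. It ran from 8.39 to 9.26 at day 1, with a median of 8.84, and day 2 gave 8.82, 8.35, 9.07, 8.78 and 9.03. Day 9 had 9.38, 9.07 and 9.50, and late tumours ran from 8.65 to 9.42 with a median of 9.18. Means of groups with more than 1 tumour ran from 8.81 at day 2 to 9.32 at day 9, and the single tumours of days 16 and 29 had 9.32 and 9.55. Late tumours were 0.31 ± 0.12 above day 1 (limma adjusted p = 0.0311) and did not differ detectably from day 0, at -0.10 ± 0.14 (limma adjusted p = 0.596). That call against day 1 was lost when day 1 replicate 2, 6 or 7 was left out, or late replicate 6, 7 or 9 (0.23 to 0.29, limma adjusted p 0.0508 to 0.108), and within spike-in set 2 it was 0.34 (limma adjusted p = 0.06). Without arrays of a Gapdh gap above 2 it was 0.04 (limma adjusted p = 0.902), and with the mean of the gene's probe sets the sign turned, at -0.23 (limma adjusted p = 0.0219).

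The 5 Igf1r probe sets disagreed. On one other than the set used, day 0 tumours had 8.31, 8.15, 8.18 and 8.28 and late tumours 6.45 to 7.36, a fall of 1.34 ± 0.18 (limma adjusted p = 4.28e-07 over 25803 probe sets). That probe set also fell at days 1, 2, 3 and 6, by 0.91, 1.00, 0.98 and 1.29. None of these days shares a spike-in set with day 0. Day 9, which shares set 3 with day 0, had 8.11, 7.75 and 6.97 on it and was not called. All 15 tumours of days 2, 3 and 6 lay below every day 0 tumour on it. Late tumours were lower by 1.07 ± 0.20 on another as well, with the probe set used at -0.10. Pearson r with the probe set used was 0.013 to 0.201 for the other 4 over 41 tumours. Against day 0, 12 of 25 member probe sets were called in late tumours, 6 higher and 6 lower, against 48.6% of all probe sets; against day 1, 15 of 25 were called, 7 higher and 8 lower, against 50.8%. At days 1, 2, 3, 6 and 9 there were 5, 5, 5, 5 and 0 of 25, against 13.8%, 17.3%, 24.5%, 17.1% and 5.22%.

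**Figure D2:**
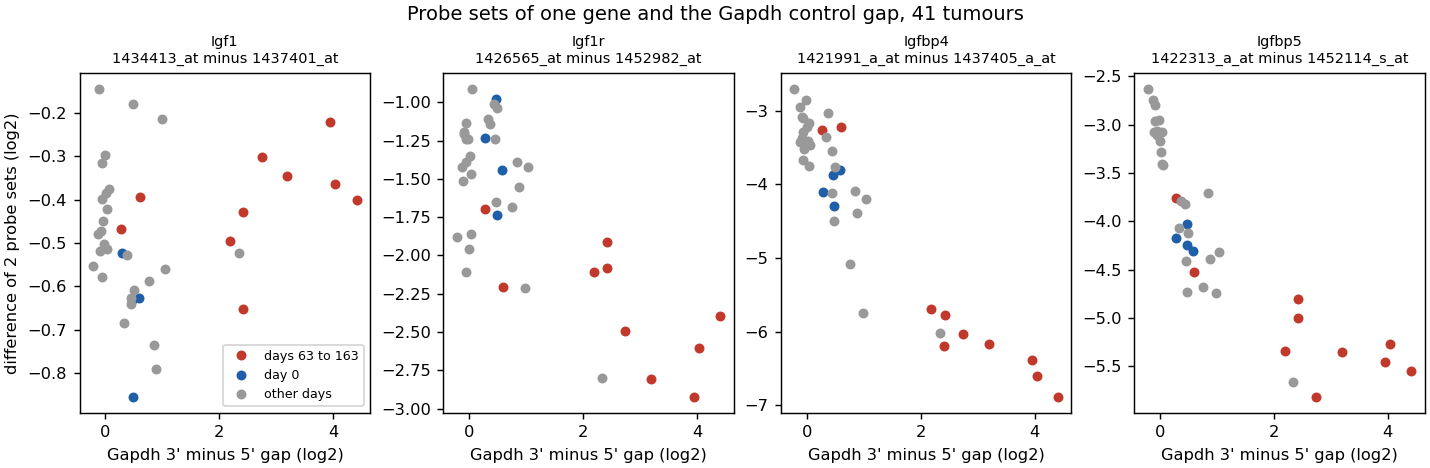
Difference between 2 probe sets of 1 gene on the log2 scale (vertical axis) against the Gapdh gap (horizontal axis, log2), one dot per tumour, in 4 panels for Igf1, Igf1r, Igfbp4 and Igfbp5 with late tumours red, day 0 blue and other days grey. For Igfbp4 the late tumours with a gap above 2 lie between -6.89 and -5.69 and the 2 others at -3.26 and -3.23, while the Igf1 pair stays within -0.86 and -0.14.

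For Igfbp4, which binds ligand and is cut by Pappa, the probe set used ran from 13.13 to 13.82 in all 41 tumours and no comparison called it. On another of its 6 probe sets late tumours with a Gapdh gap above 2 had 6.90 to 7.98 and the 2 with a smaller gap 10.29 and 10.36, against 9.03 to 9.88 at day 0. That probe set fell by 1.49 ± 0.46 in late tumours (limma adjusted p = 0.00813). On the second probe set of Igfbp5 the same split gave 6.69 to 7.35 against 8.29 and 9.39. Both probe sets were thus lower in the late tumours with a gap above 2. The day 9 tumour with such a gap had 7.58 for Igfbp4 and 7.32 for Igfbp5. The single tumours of days 16 and 29, with gaps of 0.984 and 0.757, had 7.94 and 8.64 for Igfbp4. For Igfbp5 they had 8.45 and 8.83. The part of the Gapdh gap in the differences was not tested. Igf1 pairs, shown in the plot of probe set differences against the gap, did not spread in this way.

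Igfbp2, a binding protein with preference for Igf2 that can also bind integrins, has a single probe set. Day 0 gave 6.39, 5.51, 6.09 and 5.97, day 1 ran from 5.88 to 6.69 with a median of 6.43, and day 2 gave 5.57, 6.91, 6.06, 6.52 and 7.74. Day 3 ran from 5.97 to 7.48 with a median of 6.26. At day 1, 4 of 7 tumours lay above the highest of day 0. Day 6 had 6.45, 6.47, 6.98 and 5.97, day 9 had 5.62, 7.27 and 6.95, and days 16 and 29 had 6.57 and 6.03. Late tumours ran from 6.60 to 9.65 with a median of 7.39, all above the highest day 0 tumour. Late tumours were higher by 1.59 ± 0.39 than day 0 (limma adjusted p = 0.00116), a fold of 3.01, and by 1.31 ± 0.32 than day 1 (limma adjusted p = 0.0011). The value within spike-in set 3 was 1.52 (limma adjusted p = 0.0452) and within set 2 1.40 ± 0.39 (limma adjusted p = 0.00847). It kept its call with the Gapdh gap as a covariate, at 1.96 (limma adjusted p = 0.0049), but within set 2 without arrays of a gap above 2 it did not pass, at 1.92 (limma adjusted p = 0.057). Nor did it pass against day 0 within tumours of title numbers of 3000 and above (1.56, limma adjusted p = 0.102) or below 1000 (1.57, limma adjusted p = 0.169). The highest late tumour, one of day 121, is one of the 2 with a small gap.

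Igfbp3, which carries most circulating ligand together with Igfals and restrains cell growth in many cell types, went the other way. Day 0 gave 12.05, 10.91, 11.38 and 11.31, and day 1 ran from 10.05 to 11.94 with a median of 11.10. Day 2 gave 11.01, 10.02, 10.87, 9.88 and 9.93. At day 2, 4 of 5 tumours lay below every day 0 tumour. Day 3 ran from 9.55 to 11.13 with a median of 9.99, day 6 gave 10.21, 11.43, 10.37 and 10.28, and day 9 gave 10.77, 10.80 and 9.91. Days 16 and 29 had 10.06 and 10.56, and late tumours ran from 8.35 to 11.43 with a median of 9.13. All 3 tumours of day 9 lay below every day 0 tumour. In the late group 7 tumours had 8.35 to 9.87, and those of days 90, 136 and 163 had 10.97, 11.43 and 10.15.

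Igfbp3 was lower by 1.87 ± 0.41 in late tumours than at day 0 (limma adjusted p = 0.000371) and by 1.52 ± 0.34 than at day 1 (limma adjusted p = 0.000405). The day 3 difference was -1.31 ± 0.45 (limma adjusted p = 0.034). Its second probe set was lower by 2.19 ± 0.42 in late tumours against day 0, with a Pearson r of 0.948 with the first. Within spike-in set 2 the late value was 1.86 below day 1 (limma adjusted p = 0.000977), but within set 3 the late difference from day 0 was -0.62 (limma adjusted p = 0.351). The 2 late tumours of set 3 are those of days 136 and 163. The day 3 call was lost when day 0 replicate 1, 3 or 4 was left out, or day 3 replicate 3, 4 or 5 (-1.09 to -1.34, limma adjusted p 0.0574 to 0.126), and when spike-in sets entered as a block the sign turned, at 0.43 (limma adjusted p = 0.872). The same 3 late tumours, of days 90, 136 and 163, are the 3 highest for both Igf2 and Igfbp3; these tumours were picked out after their values had been seen.

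Igfbp5 is abundant in skin and bone and Igfbp6 binds Igf2 with preference. Neither was called in any of the 7 comparisons. Igfbp5 ran from 12.16 to 13.24 at day 0 and 11.69 to 13.15 in late tumours, and its median at day 9 was 12.99. Among groups with more than 1 tumour Igfbp6 had its lowest mean at day 9, with 7.74, 8.18 and 8.48 against 8.77 to 9.63 at day 0. That difference of -1.08 ± 0.45 did not pass (limma adjusted p = 0.157). The single tumours of days 16 and 29 had 7.53 and 7.79. Late tumours of Igfbp6 ran from 8.31 to 10.53, and the differences from day 0 and day 1 were 0.50 ± 0.35 and 0.53 ± 0.29.

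Igfbp7 was higher at day 1. Day 0 gave 12.37, 11.94, 12.25 and 11.81, and day 1 ran from 12.28 to 13.26 with a median of 12.97. All 7 day 1 tumours lay above the day 0 mean, but the ranges overlap. The difference was 0.77 ± 0.21 (limma adjusted p = 0.0141), a fold of 1.70, and a second probe set gave 0.77 ± 0.25 on the same comparison. At day 2 the tumours had 12.55, 11.74, 11.82, 12.11 and 11.35, and at day 6 they had 12.24, 12.39, 12.28 and 12.02. Late tumours ran from 11.99 to 12.98 with a median of 12.56, a difference from day 0 of 0.41 ± 0.20 that did not pass (limma adjusted p = 0.0898). The day 1 call ended without day 0 replicate 4 (0.67, limma adjusted p = 0.0789) and when spike-in sets entered as a block (0.56, limma adjusted p = 0.307). The third probe set ran from 6.84 to 7.62 in all tumours and showed no rise at day 1. It had 7.37, 7.37, 7.53 and 7.58 at day 0 and 7.13 to 7.62 at day 1. Immune markers were also higher at day 1: the level of 9 macrophage genes was 8.96 to 10.37 at day 0 and 10.70 to 11.57 at day 1, with 6 of 9 called higher, and 6 of 7 T and NK cell genes were called higher. Of 4 tested Schwann cell genes 3 were called higher, where 13.8% of all genes were called. The mean macrophage level stayed at 11.18, 11.30 and 11.24 at days 2, 3 and 6, where Igfbp7 means ran from 11.91 to 12.23 against 12.10 at day 0. Over 41 tumours Igfbp7 had Pearson r of 0.0178 with the macrophage level and 0.125 with the T and NK level, as a description. With the other lists r ran from -0.189 (keratinocyte) to 0.469 (mural). The part of any of these cells in the Igfbp7 result was not tested. In late tumours 1 of 9 macrophage genes was higher and 1 lower than at day 0, and 0 of 7 T and NK genes were called, where 46.4% of all genes were called.

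**Figure D3:**
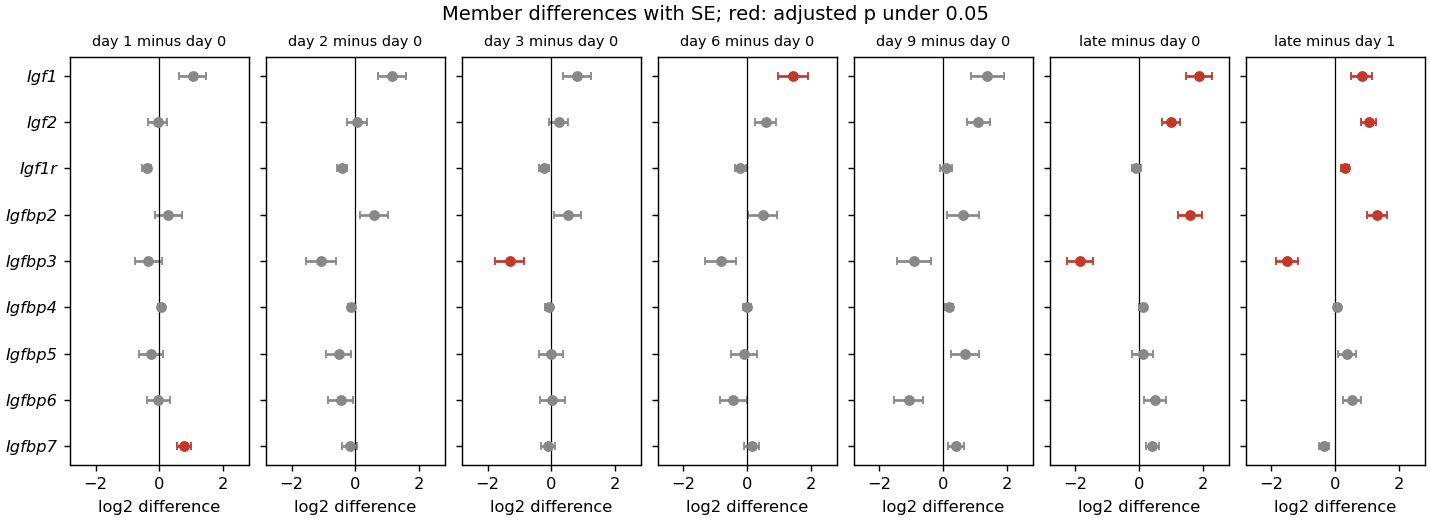
Log2 difference with its SE (horizontal axis) for the 9 members (vertical axis) in each of the 7 comparisons; red marks an adjusted p under 0.05, and late means days 63 to 163. Igf1, Igf2 and Igfbp2 are higher and Igfbp3 lower in both late panels, and single members are red at days 1, 3 and 6.

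For every member, all neighbouring groups in the order of the means overlapped in range. By mean Igf1 is ordered day 0, 3, 1, 2, 9, 6 and late, Igfbp2 day 0, 1, 6, 3, 2, 9 and late, and Igfbp3 late, day 3, 2, 9, 6, 1 and 0.

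Other genes of the pathway were taken from a list of 21, of which 17 were tested: 4 were higher and 6 lower in late tumours against day 0, where 46.4% of all genes were called, with a median of -0.090. At days 1, 2, 3, 6 and 9 the counts were 4, 4, 6, 2 and 0 lower and none higher, where 13.8%, 15.1%, 21.3%, 12.2% and 4.56% of all genes were called. Igf2r, which clears Igf2, had 10.08, 9.29, 9.64 and 10.16 at day 0 and 7.65 to 9.02 in late tumours with a median of 8.41, without overlap. It was lower by 1.43 ± 0.21 (limma adjusted p = 3.02e-06), and by 1.09, 1.29, 1.03 and 0.89 at days 1, 2, 3 and 6, all called. None of these 4 days shares a spike-in set with day 0, and each of these calls ended when the sets entered as a block (-0.91, -1.61, -1.34 and -1.21, limma adjusted p = 0.102, 0.125, 0.199 and 0.278). The day 6 call was also lost when replicate 1 or 4 of either day was left out (-0.77 to -0.81, limma adjusted p 0.0651 to 0.0868). Its other probe set was lower by 3.50 ± 0.37 in late tumours, so the size depends on the probe set.

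Irs2, one of the substrates the receptor phosphorylates, was 8.07, 6.98, 6.97 and 7.36 at day 0 and 5.48 to 6.66 late, a fall of 1.24 ± 0.22 (limma adjusted p = 2.37e-05), with no overlap; within spike-in set 3 it was -1.32 (limma adjusted p = 0.0592). Irs1 was 9.56, 9.78, 9.89 and 9.93 at day 0; it fell by 0.77 ± 0.25 at day 1 (limma adjusted p = 0.0386), a call that ended without any single day 0 tumour or without day 1 replicate 1, 3, 5, 6 or 7 (-0.71 to -0.85, limma adjusted p 0.0508 to 0.124), with arrays centred on their medians (limma adjusted p = 0.0611), on the deposited scale (limma adjusted p = 0.0508) and with spike-in sets as a block (-0.83, limma adjusted p = 0.201). Its late difference of -0.56 ± 0.24 did not pass (limma adjusted p = 0.0529). Insr, the insulin receptor, did not pass against day 0, at 0.31 ± 0.19, but was 0.67 ± 0.16 above day 1 (limma adjusted p = 0.000752). Grb10, an adaptor that dampens insulin and IGF signalling, fell by 0.89 ± 0.18 in late tumours (limma adjusted p = 0.00015), and was -0.97 within spike-in set 3 (limma adjusted p = 0.0565).

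Among genes acting on the binding proteins, the protease Pappa2 was 5.30, 5.57, 5.41 and 5.25 at day 0 and 5.33 to 7.36 late, higher by 0.98 ± 0.24 (limma adjusted p = 0.00126). With the Gapdh gap as a covariate that value was 0.47 (limma adjusted p = 0.227). All Pappa2 values of day 0 lay under the filter level of 5.67, as did those of day 1, at 5.07 to 5.65. The gene passed the filter through tumours of later days, so its rise is measured from values under that level. Pappa itself, not among the genes named by lowest p, was 6.55 ± 0.72 (SD, n = 4) at day 0 and 6.77 ± 0.53 (n = 10) late. Within spike-in set 2 Pappa was 0.89 ± 0.26 higher late than at day 1 (limma adjusted p = 0.0106). There Stc2 of the same list was 0.90 ± 0.46 higher, which did not pass (limma adjusted p = 0.115). Stc1, a secreted inhibitor of Pappa proteases, was 11.76, 10.18, 9.69 and 11.05 at day 0 and 6.35 to 9.31 late. It fell by 3.09 ± 0.52 (limma adjusted p = 1.38e-05), while its second probe set gave -0.08. Late tumours with a Gapdh gap of at most 2 had Stc1 at 8.45 and 9.06. Those with a gap above 2 had 6.35 to 9.31, all but the highest at or below 7.61. Htra1, a protease that cuts binding proteins, was 1.37 ± 0.29 higher late than at day 1 (limma adjusted p = 0.000201), with 0.43 ± 0.35 against day 0 (limma adjusted p = 0.315). Igfals, the partner of Igfbp3 in serum complexes, was near the filter level, at 5.83 to 6.32 at day 0 and 5.67 to 6.18 late, and fell by 0.34 ± 0.08 at day 1 (limma adjusted p = 0.00661); without day 0 replicate 4 that was -0.23 (limma adjusted p = 0.0877), and with spike-in sets as a block -0.22 (limma adjusted p = 0.3).

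**Figure D4:**
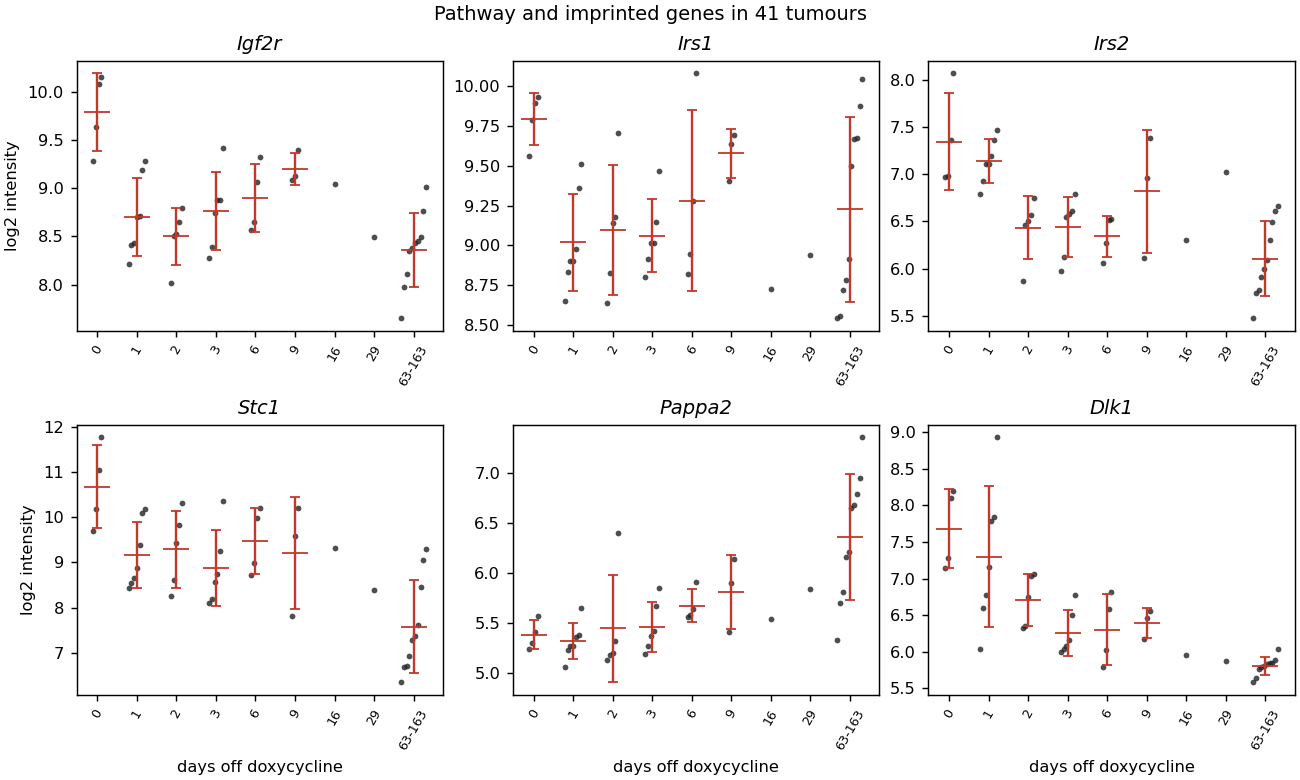
Log2 intensity of 6 pathway and imprinted genes (vertical axes, one range per panel) by days off doxycycline, one dot per tumour with the mean ± SD in red. The panels are Igf2r, Irs1, Irs2, Stc1, Pappa2 and Dlk1, of which Igf2r, Irs1, Irs2, Stc1 and Dlk1 have lower late means than day 0, 8.36 against 9.79 for Igf2r and 5.81 against 7.68 for Dlk1, and Pappa2 a higher one, 6.37 against 5.38.

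Imprinted growth genes were described from a list of 13, of which 11 were tested: 1 was higher and 5 lower in late tumours against day 0, where 46.4% of all genes were called. H19, next to Igf2, was not analysed here. Dlk1, which inhibits adipocyte formation, had 8.20, 7.15, 8.10 and 7.28 at day 0 and 5.58 to 6.04 late, without overlap, a fall of 1.88 ± 0.29 (limma adjusted p = 5.48e-06); it was also called lower at days 2, 3, 6 and 9. With spike-in sets as a block the calls of days 2, 3 and 6 ended (limma adjusted p = 0.285, 0.15 and 0.184). The day 2 call also ended without any of 6 single tumours, day 0 replicates 1, 3 and 4 and day 2 replicates 2, 4 and 5 (-0.80 to -1.11, limma adjusted p 0.0522 to 0.155), with median centring (limma adjusted p = 0.0587), on the deposited scale (0.0536), with no filter (0.0528) and without arrays of a Gapdh gap above 2 (0.0706). The day 9 fall of 1.28 ended as a call without any of 6 single tumours, all but day 0 replicate 2 (limma adjusted p 0.0523 to 0.289). Mest fell by 1.36 ± 0.30 in late tumours (limma adjusted p = 0.000422), with 9.21, 10.48, 10.24 and 9.46 at day 0 and 7.85 to 8.98 late, and was -0.80 with the Gapdh gap as a covariate (limma adjusted p = 0.105) and -1.57 within spike-in set 3 (limma adjusted p = 0.0654). In late tumours against day 0 Igf2 was thus higher while Dlk1, Igf2r and Mest, picked from the list by lowest p, were lower. At days 1, 2, 3 and 6 Igf2 was not called, at -0.05, 0.05, 0.23 and 0.58, and neither was Mest. Within spike-in set 2 Cdkn1c and Sgce of the same list were higher late than at day 1, by 1.35 and 0.82 (limma adjusted p = 0.00666 and 0.00343).

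The tested genes whose log2 values had the highest Pearson r with each member over the 41 tumours are given as a description. They were Zfhx4 (0.837), Kctd12b (0.818) and Pgm2l1 (0.814) for Igf1, and Nfrkb (0.784), Dnmt3b (0.78) and Foxj2 (0.779) for Igf2. For Igf1r they were Ulk1 (0.791), Tacc2 (0.77) and 4933439C10Rik (0.758). Igfbp2 was most like Sostdc1 (0.729), Defb6 (0.703) and Aldh1a1 (0.698), and Igfbp3 most like Tbc1d1 (0.806), Spg7 (0.805) and Map7d1 (0.798). Igfbp4 was most like Nfatc4 (0.815), Sel1l (0.808) and Slc4a3 (0.805), and Igfbp5 most like Gng4 (0.817), Txndc16 (0.714) and Nkd2 (0.703). For Igfbp6 they were Rarb (0.689), Enpep (0.657) and Fbln7 (0.654), and for Igfbp7 Fam20c (0.773), Mdk (0.728) and Tmem129 (0.714). With the group means removed these r ran from 0.39 (Igfbp2 with Aldh1a1) to 0.805 (Igfbp5 with Gng4). Between the members themselves the 36 pairs had r from -0.468 (Igfbp2 with Igfbp3) to 0.553 (Igf2 with Igf1r). These pairs had -0.0864 and 0.388 once the group means were removed. All genes of a tumour share its array, RNA quality and group, and no shared control is implied.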

How the data were processed

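The 41 tumours were read from 1 table of linear intensity values deposited by the authors for 45101 probe sets, with medians of 51.8 to 57.4 per array. RMA and MAS5 are named per the submitters' processing notes, without saying which made the table; the genome build was not given in the sources used here. Groups follow the days off doxycycline in the labels. Values were turned to log2(value + 16) and quantile normalised, and each gene was represented by its probe set of highest mean. Genes above the 40th percentile of an array in at least 3 arrays were tested with limma 3.58.1 in R 4.3.3 (one mean per group, 32 residual degrees of freedom, Benjamini-Hochberg adjustment), which was tested on simulated data. Arrays have no read depth, so their number limits the precision. Figures used Python 3.11.15 and matplotlib 3.10.9. The members and lists (pathway, imprinted, and markers of fibroblasts, macrophages, endothelial, mural, Schwann, adipocyte, muscle, keratinocyte, melanocyte, T and NK cells) were chosen with earlier results of these data known. All 9 members are named, with pathway and imprinted genes named by their lowest p among those called. Alternatives covered scaling, pseudocount, filter, probe sets, array weights, single tumours, spike-in sets and the Gapdh gap.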

Additional observations from a re-analysis of the deposited data

Results flagged for a closer look

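Each member probe set was examined in each group of 4 to 10 tumours, which gave 156 cases. In 7 of them a tumour was set apart from the others by more than Dixon's 95% limit, and chance gives about 1 in 20. The cases are not independent, since they share the same arrays. Igf2 was lowest in day 1 replicate 7, at 5.517 against 6.161 for the next. Igf1r on one of its other probe sets was highest in day 1 replicate 1, at 6.021 against 5.741. In day 6 replicate 2 both Igfbp3, at 11.43 against 10.37, and Igfbp6, at 9.477 against 8.621, were highest. Igfbp5 was highest in day 0 replicate 1, at 13.24 against 12.24. Igfbp7 on its second probe set was highest in day 2 replicate 1, at 7.786 against 6.859, and on a further one in day 6 replicate 4, at 7.453 against 7.287.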

How the results depend on the processing

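No paired analysis was possible because the labels number no replicates; numbers here were given in accession order. The spike-in sets, the Gapdh gap and the spans of late days were chosen after seeing the data. The number of members called at day 1 (1) became 2 when probe sets were averaged per gene or array weights were used, and 0 when spike-in sets entered as a block. At day 2 (0) it was 2 with the mean of probe sets, 1 with array weights, 1 with the Gapdh gap as a covariate and 2 without arrays of a gap above 2. At day 3 (1) it was 2 with the mean of probe sets, 2 with array weights and 0 with the block, where Igfbp3 reversed to 0.43. At day 6 (1) it was 0 with a pseudocount of 64, with no filter, with the compared groups only or with the block, 2 with the mean of probe sets and 3 with array weights. At day 9 (0) it was 1 with array weights and 1 with the block. For late against day 0 (4) it was 2 with the block, 2 within the set, 2 for title numbers of 3000 and above, 0 for those below 1000 and 2 with the gap as a covariate. For late against day 1 (5) it was 3 with the gap as a covariate, 2 without arrays of a gap above 2, 3 with late days 63 and 77, 3 with days 90 to 163 and 1 within spike-in set 2 at a gap of at most 2. There averaging probe sets per gene reversed Igf1r to -0.23 and Igfbp4 to -0.46. The count of other probe sets called late against day 0 (8) was 5 with the block, 2 within the set and 0 for title numbers below 1000, and within spike-in set 2 the 4 members became 1 without arrays of a gap above 2. Leaving out single tumours gave 0 to 2 at day 1, 0 to 1 at days 2, 3 and 6, 0 to 2 at day 9, 4 to 4 late against day 0, 3 to 6 late against day 1, 8 to 10 other probe sets and 4 to 6 within set 2. The causes were not tested.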
